A study of Mus musculus with 6 samples.

Results

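A set of 40 mRNA probes on a mouse small RNA array was read in plasma EVs, out of 50 mRNA probes and 14242 non-control probes in all. They are the mRNA probes left after 10 probes for antioxidant, endosome, autophagy, lipid enzyme, immune and abundant vesicle mRNAs were set apart. They share no single pathway. The rule uses probe names and no signal values, but it was made with earlier results of these data known. Small RNA of plasma EVs was measured in 3 samples of control mice (non-cancer-EVs) and 3 samples of mice with lung cancer (cancer-EVs), with 1 array per sample. The cancer mice carried tumors of LLC cells, a mouse lung carcinoma line, and the study's animals were C57BL/6J mice obtained as young adults of several weeks of age, per its methods. The labels do not say whether a sample came from 1 mouse or several, so the p-values measure the spread between these samples. EVs were pelleted from filtered plasma by ultracentrifugation, and equal amounts of RNA were labeled at their ends with the dye Cy3.

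EVs are membrane-bound particles that cells release into blood, from endosomes or from the cell surface. They carry small RNAs together with mRNAs and fragments of mRNAs from many source cells, so a pelleted plasma sample mixes vesicles of blood cells, vessel walls, organs and, where present, a tumor. Fewer vesicles of one source and less RNA per vesicle cannot be told apart in such a sample. Of 37 marker genes listed for red cells, platelets, leukocytes, liver, lung epithelium and vesicles, 0 are among the mRNA probes, so the vesicle label could not be checked with them. Probes of this kind are usually read with amplified antisense copies of mRNA, whereas here the RNA itself was labeled, and the files give neither the sequence nor the strand of the probes. A value below is therefore the signal of the probe named for a gene, and how much of it came from intact mRNA was not tested.

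The accessions of 36 of the 40 probes matched a gene in the RefSeq table of GRCm38.p6. Another 4 did not match and are given by accession. Each probe lies on 10 spots, which makes 400 spots per array and 2400 in all. No spot was saturated, and 8 to 10 of the 400 carried an outlier mark on an array and were left out. Before normalization the mean signal of a probe ran from 1.22 for Nup50 on the array of non-cancer-EVs 1 to 6980 for Pex11a on that of cancer-EVs 2. Over all non-control spots the median signal was 24.7 to 44.2 per array, against 1.02 to 1.26 for the negative control spots. Signals were quantile normalized between arrays, set to at least 1, converted to log2 and averaged over the spots of a probe. A probe was taken as detected on an array if 50% or more of its spots stood well above background.

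By this measure 31 of the 40 probes were detected on all 6 arrays. The others were dim. Ppara, the nuclear receptor that switches on fatty acid oxidation, was detected on 0 of 6 arrays. Kcnn2, a calcium-activated potassium channel, was detected on the array of cancer-EVs 2 alone, and the transcript ENSMUST00000133268.8 on that of non-cancer-EVs 3 alone. These 3 probes were not tested. For Kcnn2 the measured mean was 1.64 in non-cancer-EVs, where no array detected it, and 2.48 in cancer-EVs, where 1 of 3 did. No fold is given, since 5 of its 6 values were not above background. Among the tested probes Lhfp, Bambi and Nup50 were detected on 3 arrays, and Gabrg1, Trp53rka and Tyr on 5.

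The question asked of each probe was whether its signal differed between the EVs of cancer mice and of control mice. The cutoffs were a fold change over 1.4 together with p under 0.05 before adjustment. Of the 37 probes tested, 3 passed them with cancer-EVs higher, where 3.02% of all 13779 probes tested did. They were Lhfp, Mzb1 and Pex11a. A single probe, Dnajc11, passed with cancer-EVs lower, where 1.72% of all probes did. These are 8.11% and 2.7% of the 37 probes, and they rest on few probes. No probe passed after Benjamini-Hochberg adjustment over all probes: limma called 0 of 37 at an adjusted p below 0.05, as for all probes (0%), with 5 of 37 at an unadjusted p below 0.05 against 6.89% of all probes. The smallest adjusted p among the 37 was 0.438, for Lhfp. The methods' t-test gave 0 adjusted calls as well. Before adjustment limma gave p = 0.00335 for Lhfp, p = 0.00708 for Mzb1, p = 0.0148 for Dnajc11, p = 0.0201 for Pex11a and p = 0.0472 for Gm9789, where an exact permutation test of 3 against 3 arrays cannot go below 0.1.

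**Figure D1:**
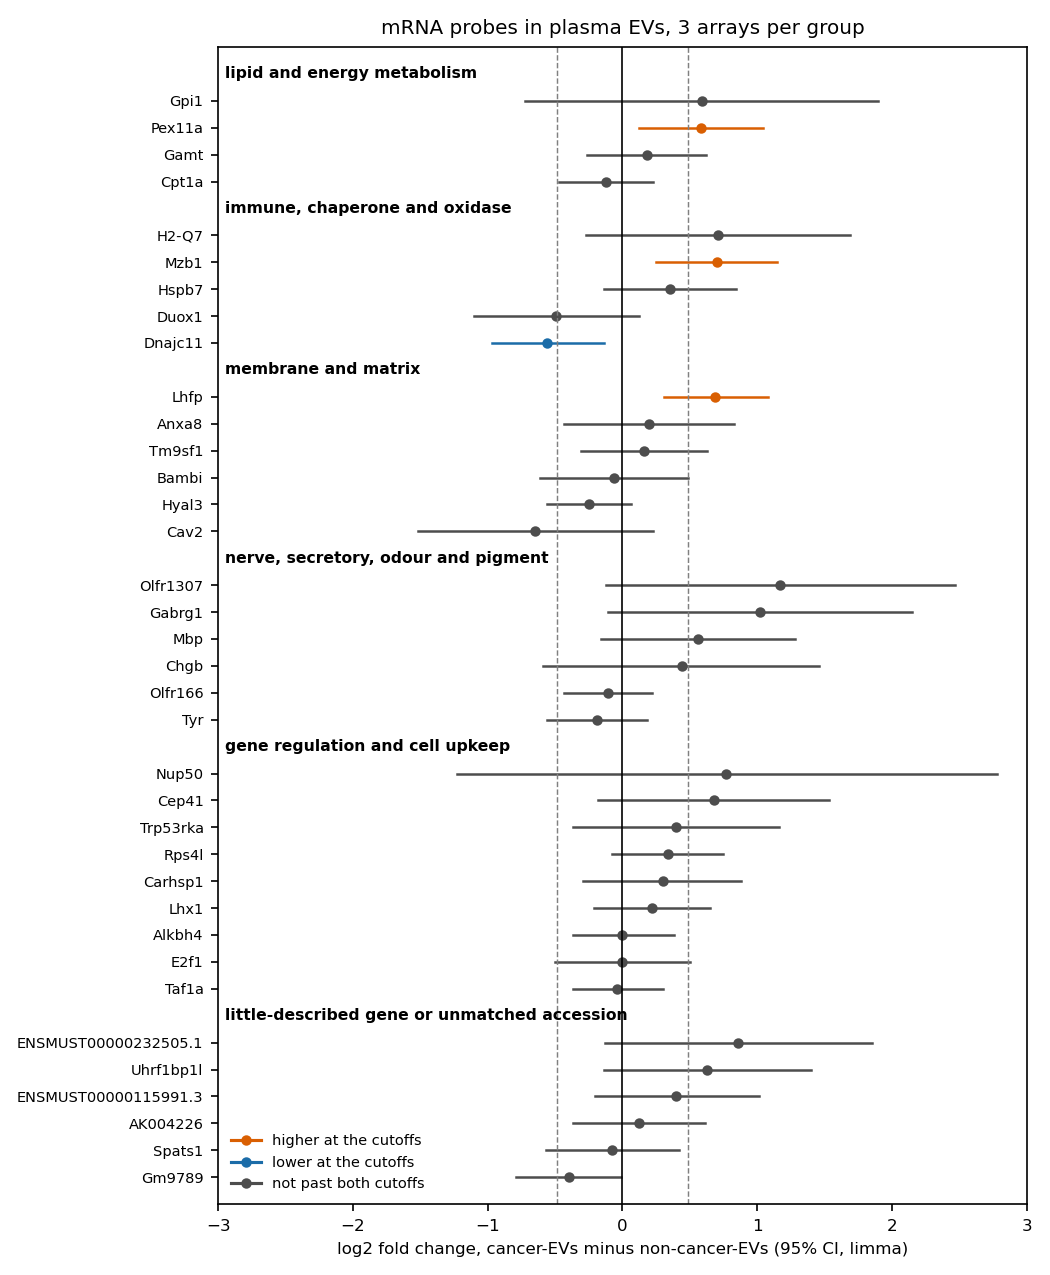
Log2 fold change of 36 of the 37 tested mRNA probes (x axis, cancer-EVs minus non-cancer-EVs, 3 arrays each), grouped by what their genes are known for. Points are limma estimates, bars 95% confidence intervals, and dashed lines the 1.4-fold cutoff in either direction. The widest intervals belong to Nup50, Gpi1 and Olfr1307, and the intervals of Lhfp, Mzb1, Pex11a, Dnajc11 and Gm9789 do not reach 0.

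Mzb1, a chaperone of the endoplasmic reticulum that B cells and plasma cells use to fold antibodies, was higher in cancer-EVs. In the order of replicates 1, 2 and 3, as throughout, its log2 signal was 6.38, 7.0 and 6.78 in non-cancer-EVs and 7.40, 7.28 and 7.60 in cancer-EVs. All 3 cancer-EVs lay above all 3 non-cancer-EVs. The means were 6.72 ± 0.32 and 7.42 ± 0.16 (SD, n = 3 each), so that the difference on the log2 scale was 0.70 with a standard error of 0.20 (1.63-fold, adjusted p = 0.570). In the 6 sets of 5 arrays this difference stayed between 0.53 and 0.84, and the probe passed both cutoffs under all 16 alternative settings run.

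Pex11a, a peroxisomal membrane protein that helps peroxisomes divide, was the other bright probe that was higher. Its log2 signal was 11.28, 11.13 and 11.70 in non-cancer-EVs and 11.82, 12.20 and 11.82 in cancer-EVs. The groups did not overlap, although non-cancer-EVs 3 came within 0.12 of the lowest cancer-EVs. The difference was 0.58 on the log2 scale, with a standard error of 0.20 (1.5-fold, adjusted p = 0.690). The probe passed both cutoffs in 3 of the 6 sets of 5 arrays, failing without non-cancer-EVs 1 (0.53), non-cancer-EVs 2 (0.46) or cancer-EVs 2 (0.45). It also missed the cutoff in the methods' t-test, with p = 0.0533, where an exact permutation test cannot go below 0.1.

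Lhfp, a membrane protein of the tetraspan type, was the dimmest of the 4. Its log2 signal was 2.11, 2.17 and 2.43 in non-cancer-EVs and 2.96, 3.11 and 2.73 in cancer-EVs, again without overlap. It was detected on 1 array of non-cancer-EVs and 2 of cancer-EVs, so 3 of the 6 values behind its fold were not above background. The difference was 0.69 on the log2 scale, with a standard error of 0.17 (1.62-fold, adjusted p = 0.438). Under normexp with an offset of 50, run on spot medians in place of the processed signal, it was 0.08 and no longer past the cutoffs.

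Dnajc11, a mitochondrial J-domain protein tied to the folding of the inner membrane into cristae, was lower in cancer-EVs. Its log2 signal was 5.55, 5.71 and 5.70 in non-cancer-EVs and 5.43, 4.90 and 4.97 in cancer-EVs. The array of cancer-EVs 1 stood close to the non-cancer-EVs and the other two lay well below them. The means were 5.66 ± 0.09 and 5.10 ± 0.29 (SD, n = 3 each), a difference of -0.56 on the log2 scale with a standard error of 0.18 (1.47-fold lower, adjusted p = 0.690). It passed both cutoffs in 4 of the 6 sets of 5 arrays, failing without cancer-EVs 2 or cancer-EVs 3, with a log2 fold change between -0.72 and -0.46, and under normexp on spot medians it was -0.24.

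**Figure D2:**
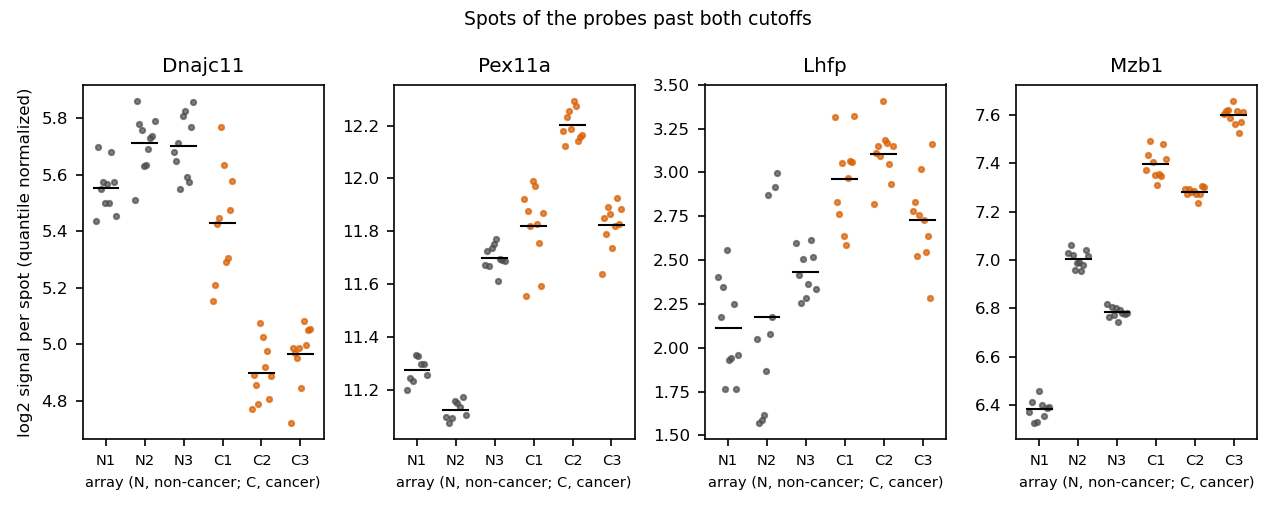
All spots of the 4 mRNA probes past both cutoffs, as quantile normalized log2 signal (y axis) by array (x axis, N for non-cancer-EVs and C for cancer-EVs, with their replicate numbers). Each point is a spot and each black line the mean of an array; spots of the dim probe Lhfp scatter widely, and those of Mzb1 lie close to their array's mean, and those of Pex11a overlap between non-cancer-EVs 3 and cancer-EVs 1.

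Among the other metabolic probes, 0 of 3 tested passed the cutoffs. Cpt1a, which loads fatty acids for transport into mitochondria, had log2 signals of 4.97, 5.31 and 5.0 in non-cancer-EVs and 4.94, 4.97 and 5.01 in cancer-EVs. That is a log2 fold change of -0.12 with a 95% confidence interval from -0.47 to 0.23. The lower end of the interval stops only just short of a 1.4-fold fall. For Gamt, the last enzyme of creatine synthesis, it was 0.18 ± 0.19 (SE). Gpi1, the glycolytic enzyme that turns glucose-6-phosphate into fructose-6-phosphate, varied more within cancer-EVs than between the groups: 7.35, 8.40 and 7.94 in non-cancer-EVs against 9.61, 8.72 and 7.14 in cancer-EVs. Both the highest and the lowest of its 6 values were on arrays of cancer-EVs, and the interval of its log2 fold change of 0.59 ran from -0.72 to 1.90. It was 0.03 without cancer-EVs 1 and passed both cutoffs without cancer-EVs 3 (1.26).

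Of the immune, chaperone and oxidase probes, Mzb1 was higher, Dnajc11 was lower and 3 of 5 did not pass. H2-Q7, a class I molecule of the Qa family whose members share much sequence, had log2 signals of 6.67, 8.10 and 7.93 in non-cancer-EVs and 8.69, 8.55 and 7.57 in cancer-EVs. Its lowest value was on non-cancer-EVs 1, and cancer-EVs 3 lay below 2 of the 3 non-cancer-EVs, so that the log2 fold change of 0.71 had a standard error of 0.42 (limma adjusted p = 0.695). It was 0.26 without non-cancer-EVs 1 and passed both cutoffs without cancer-EVs 3 (1.06). For Hspb7, a small heat shock protein of heart and muscle, it was 0.35 ± 0.21 (SE). Duox1, an oxidase that makes hydrogen peroxide at epithelial surfaces, had log2 signals of 9.25, 9.57 and 9.87 in non-cancer-EVs and 8.71, 9.60 and 8.91 in cancer-EVs. Replicates 1 and 3 of cancer-EVs were below every non-cancer-EVs array and replicate 2 was among them (log2 fold change -0.49 ± 0.26 SE, adjusted p = 0.690). Without cancer-EVs 2 it passed both cutoffs at -0.75, and without cancer-EVs 1 it was -0.31.

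Of the 6 membrane and matrix probes, Lhfp alone passed. Cav2, a caveolin of the flask-shaped pits of the cell surface, had the lowest fold change of the 37. Its log2 signal was 4.54, 4.92 and 4.81 in non-cancer-EVs and 4.94, 4.16 and 3.24 in cancer-EVs. The cancer-EVs held both its highest and its lowest value, and the log2 fold change of -0.65 had an interval from -1.52 to 0.23 (limma adjusted p = 0.690). It passed both cutoffs without cancer-EVs 1 (-1.06) and was -0.21 without cancer-EVs 3. Hyal3, a member of the hyaluronidase family, was close to the reverse: its values, 6.70, 6.66 and 6.70 against 6.49, 6.37 and 6.44, did not overlap between the groups, but the log2 fold change of -0.25 was short of 1.4-fold (adjusted p = 0.690). The methods' t-test, which takes the spread from each probe alone, gave Hyal3 p = 0.00232 against p = 0.0948 in limma, and an exact permutation test cannot go below 0.1. Anxa8, a calcium-dependent membrane-binding annexin, had a log2 fold change of 0.20. That of Tm9sf1, of a family of proteins that span the membrane many times, was 0.16. Without cancer-EVs 2 it was -0.06 for Anxa8 and -0.02 for Tm9sf1, and without cancer-EVs 1 it was 0.47 and 0.30. Bambi, a decoy receptor of TGF-beta signaling, had a log2 fold change of -0.06.

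The probes for genes of nerve cells, secretory granules, smell and pigment numbered 7, and 0 of the 6 tested passed. Olfr1307, an olfactory receptor, had the highest fold change of the 37, with log2 signals of 7.70, 9.27 and 9.63 in non-cancer-EVs and 9.09, 10.76 and 10.27 in cancer-EVs. Its value on cancer-EVs 1 lay below those of 2 non-cancer-EVs, and the log2 fold change of 1.17 had a standard error of 0.56 (2.26-fold, limma adjusted p = 0.690). It was 0.59 without non-cancer-EVs 1, and it passed both cutoffs without non-cancer-EVs 3 (1.56) or cancer-EVs 1 (1.65). The other olfactory receptor, Olfr166, hardly varied, between 9.73 and 10.00 over the 6 arrays, with a log2 fold change of -0.11. Gabrg1, a subunit of GABA receptors, had a difference of 1.02 ± 0.49 (SE) on the log2 scale, and its lowest value, 1.90, was on non-cancer-EVs 1, where it was not detected. The difference was 0.41 without that array and passed both cutoffs without non-cancer-EVs 2 (1.29) or non-cancer-EVs 3 (1.36). Mbp, the myelin basic protein, had 0.56 (standard error 0.31) and Chgb, chromogranin B of hormone granules, 0.44 (standard error 0.45). For Mbp the difference shrank to 0.24 when the array of non-cancer-EVs 1 was left out. It reached 0.80, past both cutoffs, when cancer-EVs 3 was dropped instead. Tyr, the enzyme of melanin synthesis, had -0.19 (standard error 0.16).

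Of the 10 probes for gene regulation and cell upkeep, 0 passed, with log2 fold changes between -0.04 and 0.77. E2f1, a driver of entry into the cell cycle, and Alkbh4, a demethylase, had log2 fold changes of 0.00, with intervals from -0.50 to 0.50 and from -0.37 to 0.38, and Taf1a, a factor for ribosomal RNA transcription, had -0.04. Lhx1, a homeobox factor of the embryo, had 0.22, and Carhsp1, an RNA-binding cold shock protein, 0.30. Rps4l, a transcribed pseudogene that resembles a ribosomal protein gene, had 0.34. Trp53rka, a kinase that acts on p53, had 0.40, and Cep41, a centrosomal protein, 0.68. Without non-cancer-EVs 1 the value was 0.06 for Carhsp1, and 0.03 for Trp53rka, which was not detected on that array. Nup50, a nuclear pore protein, was the most variable of the 37: it was at 0.53, 2.74 and 2.25 in non-cancer-EVs and at 4.01, 3.20 and 0.64 in cancer-EVs, so that both groups held a value close to the floor of 0. Nup50 was detected on 1 array of non-cancer-EVs and 2 of cancer-EVs, so its log2 fold changes rest partly on values not above background. They were 0.77 over all arrays, 0.08 without cancer-EVs 1 and 1.76 without cancer-EVs 3, where it passed both cutoffs. Cep41 passed both cutoffs without non-cancer-EVs 2 (0.94) and was 0.24 without non-cancer-EVs 1.

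The remaining 7 probes stand for little-described genes or unmatched accessions, and 0 of the 6 tested passed. Gm9789, a predicted gene, had log2 signals of 7.46, 7.24 and 7.15 in non-cancer-EVs and 6.76, 6.77 and 7.13 in cancer-EVs. The groups did not overlap, although cancer-EVs 3 at 7.13 almost met non-cancer-EVs 3 at 7.15. For Gm9789 the log2 fold change of -0.40 was short of 1.4-fold (limma adjusted p = 0.690), and the probe passed both cutoffs without cancer-EVs 3 (-0.52). ENSMUST00000232505.1 had 4.14, 5.66 and 5.77 in non-cancer-EVs and 5.67, 6.49 and 5.99 in cancer-EVs, with cancer-EVs 1 below the highest non-cancer-EVs and a difference of 0.86 ± 0.43 (SE, adjusted p = 0.690). That difference was 0.33 without non-cancer-EVs 1 and passed both cutoffs without non-cancer-EVs 3 (1.15). Log2 fold changes were 0.63 for Uhrf1bp1l, 0.40 for ENSMUST00000115991.3, 0.12 for AK004226 and -0.08 for Spats1. Uhrf1bp1l passed both cutoffs without cancer-EVs 3 (0.93) and was 0.34 without non-cancer-EVs 1. ENSMUST00000115991.3 passed both without cancer-EVs 1 (0.61) and was 0.15 without cancer-EVs 2. Over all 37 probes the groups did not overlap for 3 with cancer-EVs higher and 3 with cancer-EVs lower, where the shares of all probes tested were 4.45% and 8.73%. The 3 lower were Dnajc11, Gm9789 and Hyal3.

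As a list, 26 of the 37 probes had a log2 fold change above 0, or 70.3%, beside 38.3% of all probes tested. Their median log2 fold change was 0.22, beside -0.07 over all probes. The array of non-cancer-EVs 1 stood apart in these probes. On it the tested mRNA probes had a median deviation of -0.38 from their own mean over the 6 arrays, while all tested probes had 0.12. That array held the lowest value of 23 of the 37 probes, 62.2%, and of 18.0% of all probes tested. Over all probes tested it lay the other way, with the highest value of 40.4% of them but of 2 of the 37. By the series in the probe name, the median deviation on that array was 0.16 for MIRNA, 0.14 for TRF and -0.01 for PST probes. The highest values of the 37 were most often on cancer-EVs 2 (15 probes, beside 19.8% of all probes) and cancer-EVs 1 (10 probes, beside 15% of all). Without non-cancer-EVs 1 the median log2 fold change of the 37 was 0.06, beside -0.02 over all probes, and 24 were above 0, beside 46.6% of all probes. Without cancer-EVs 2, 21 were above 0, beside 39.9% of all probes, and the median was 0.16. The slide row was read from the barcode of each array, and the labels do not name it as a row. By this reading non-cancer-EVs 1 lay in row 1 with the 3 arrays of cancer-EVs, and non-cancer-EVs 2 and 3 lay in row 2. With the row as a block, which leaves non-cancer-EVs 1 as the only control array in the comparison, the median was 0.42, beside -0.16 over all probes. The log2 fold changes there, which rest on 1 control array, were 1.04 for Mzb1, 0.82 for Lhfp, 0.67 for Pex11a and -0.46 for Dnajc11, and Pex11a and Dnajc11 did not pass the cutoffs.

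**Figure D3:**
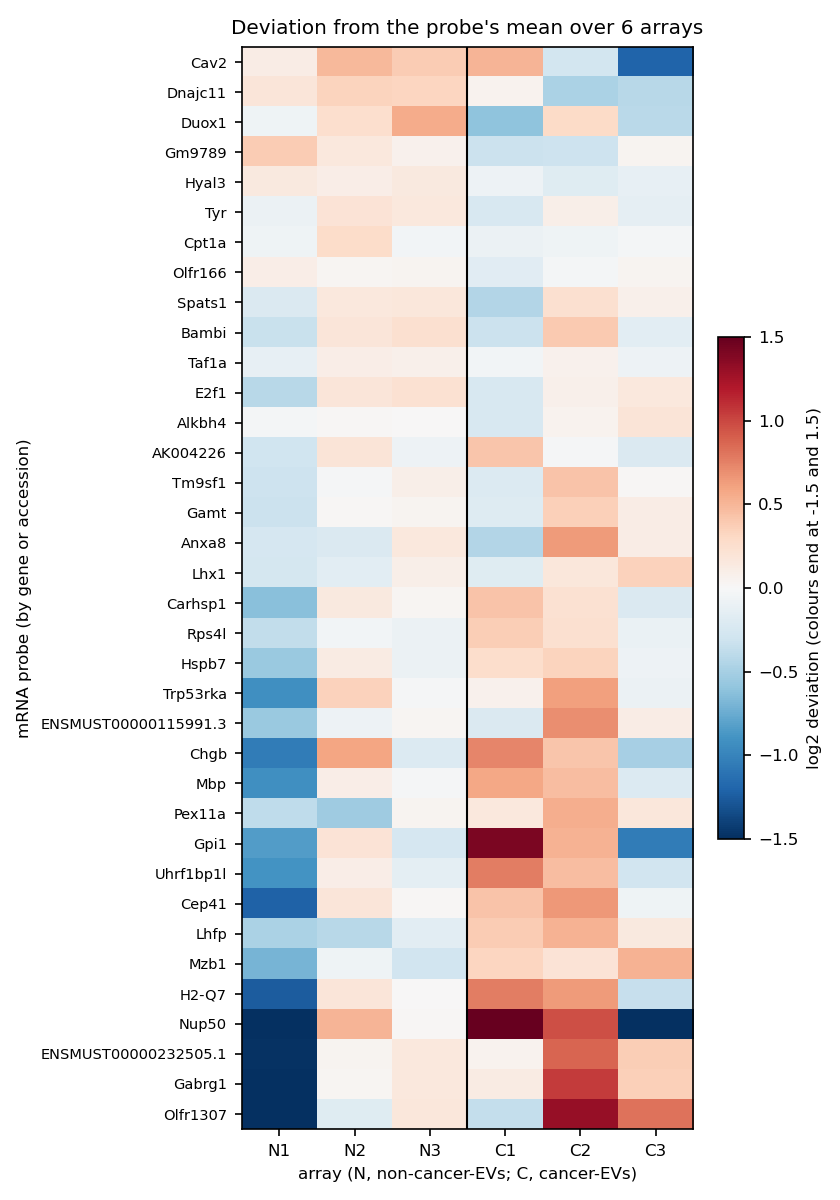
Deviation of 36 of the 37 tested mRNA probes from its mean over the 6 arrays (color, log2 units, ends at -1.5 and 1.5), with arrays as columns (N for non-cancer-EVs, C for cancer-EVs) and probes ordered by log2 fold change from the lowest at the top. The column of non-cancer-EVs 1 holds the lowest value of 23 probes; since it is 1 of the 3 control arrays, a low value there also raises the fold change by which the probes are ordered.

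The probes differed in how far they moved between arrays. The range over the 6 arrays was above 1.5 on the log2 scale for 11 of the 37 probes, 29.7% beside 8.27% of all probes tested. Of these 11, 0 passed the cutoffs, where 4.74% of all probes passed in either direction, so the count says little. The 11 probes were Nup50 (3.48), Olfr1307 (3.05), Gabrg1 (2.78), Gpi1 (2.47), ENSMUST00000232505.1 (2.35), H2-Q7 (2.02), Cep41 (1.87), Chgb (1.78), Cav2 (1.70), Uhrf1bp1l (1.66) and Trp53rka (1.54). For 9 of them the lowest value was on non-cancer-EVs 1, where Nup50, Gabrg1 and Trp53rka were not above background and their ranges start from such values, and for Gpi1 and Cav2 it was on cancer-EVs 3. At the other end, 7 probes stayed within 0.5, 18.9% beside 30.7% of all probes: among them Taf1a (0.22), Olfr166 (0.27), Hyal3 (0.33), Cpt1a (0.37), Alkbh4 (0.44) and Tyr (0.44).

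The 10 spots of a probe share the labeled RNA and the hybridization of their array, so the SD between them covers spot noise alone. The median SD between spots was 0.061 over the tested probes, with the highest, 0.374, for Bambi, and the untested Ppara had the largest of all 40, 0.507. Averaged over 10 spots this made a median standard error of 0.019. The SD between arrays of one group, which also holds differences between samples, labeling and hybridization, had a median of 0.29, beside 0.22 over all probes tested, and was under 3 times the spot standard error for 2 probes, Lhfp and Bambi. 

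**Figure D4:**
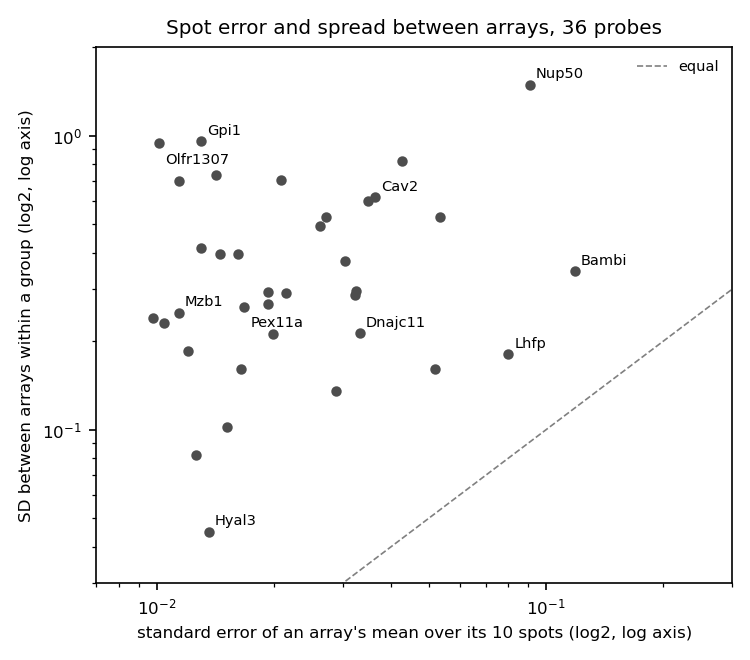
SD between arrays within a group (y axis, log2 units, pooled over both groups, log axis) against the standard error of an array's mean over its spots (x axis, log2 units, log axis) for 36 of the 37 tested mRNA probes. Every point lies above the dashed line of equality, with Lhfp and Bambi closest to it and Olfr1307 and Gpi1 among the farthest.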

How the data were processed

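Each of the 6 samples has 1 array. Scanner files from Feature Extraction 11.0.1.1 were deposited by the authors. The deposited processed intensity of a spot had its background removed by the authors' scanner software and was not normalized between arrays. Spot yes or no marks for background and outliers, another kind of deposited value, were used as given. A deposited table of log2 values lists 0 of the 40 probes and was not used for values; over its 14192 probes it followed log2 of each array's own scanner values (r = 0.996 to 0.998). Groups came from the disease label; the treatment text speaks of blood of volunteers, while organism and description give mice.

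Non-control spots without an outlier mark were quantile normalized, set to at least 1, converted to log2 and averaged per probe. Probes detected on at least 3 of 6 arrays, with a value on every array, were fitted together with limma 3.58.1 in R 4.3.3 (cancer-EVs minus non-cancer-EVs, no covariate) and adjusted over all 13779. The methods' cutoffs, p below 0.05 and a fold change above 1.4, were taken as unadjusted. The fit was tested on simulated data. The mRNA probes, lists and alternatives were chosen with earlier results of these data known. Probes given with all 6 values were those past both cutoffs, the 3 largest rises and falls detected on all arrays, those without overlap and those undetected in a group (given by group means or detection alone); Ppara, with the largest spot spread, is given by that spread; Gpi1, Cpt1a and Nup50 were added after their values were seen. Genes were grouped by known roles. The values of 1 tested probe are not reported here, though it counts among the 37. The number of arrays limits the precision.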

Additional observations from a re-analysis of the deposited data

How the results depend on the processing

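The 11 alternatives gave 16 settings, since each array was left out in turn. Mzb1 passed the cutoffs in all 16, of which the slide row fit rests on 1 control array. Lhfp passed in 14: normexp on spot medians, which changed the input and the background correction together, ended its call and the filter on all 6 arrays left it out. Dnajc11 passed in 12, failing under normexp, the slide row as a block and without cancer-EVs 2 or 3. Pex11a passed in 11, failing in the methods' t-test, with the slide row as a block and without replicate 1 or 2 of non-cancer-EVs or replicate 2 of cancer-EVs. The 75th percentile, cyclic loess, no filter, the median over spots and an intensity trend kept the same 4 calls. The 3 higher probes became 6 with the replicate block (7.05% of all probes called in either direction, against 4.74%) and 13 with the slide row as a block, which sets cancer-EVs against non-cancer-EVs 1, since row 2 held only non-cancer-EVs 2 and 3; 16.9% of all probes were called there. Olfr1307 passed in 4 settings: both blocks and without non-cancer-EVs 3 or cancer-EVs 1. Normexp on spot medians left 2 higher and 0 lower, where 1.58% of all probes were called. Over the sets of 5 arrays, 2 to 8 were higher (8 if cancer-EVs 3 was omitted, 6 if non-cancer-EVs 3 was, 5 if cancer-EVs 1 was, where 8.41%, 6.58% and 7.69% of all probes were called; 2 if non-cancer-EVs 1 or cancer-EVs 2 was, where 2.82% and 2.95% were) and 1 to 2 lower (Dnajc11, joined by Cav2 if cancer-EVs 1 was omitted and replaced by Duox1 if cancer-EVs 2 was and by Gm9789 if cancer-EVs 3 was), none at an adjusted p below 0.05, and the median log2 fold change was 0.06 to 0.33. The cause was not tested. Adjusted calls among these probes were 0 under all settings, the t-test being one of them, with a smallest adjusted p between 0.0792 and 0.999 and 3 to 14 at an unadjusted p below 0.05. Same-numbered arrays deviated together with r = 0.09, 0.25 and -0.22. These values were not set beside those of differently numbered arrays, so whether the replicate numbers pair the samples was not tested.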
